A study of Homo sapiens with 2 samples.

Results

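XPA and 9 other core genes of nucleotide excision repair (NER) were followed in RKO colon carcinoma cells after knockdown of the splicing factor SRSF2. The 10 genes were named in advance by symbol (XPA, XPC, DDB1, DDB2, ERCC1, ERCC2, ERCC3, ERCC4, ERCC5 and RAD23B), and all 10 were found among the 54261 symbols of the gene count table. The list was selected on results of these same libraries, in which the total of XPA and the use of an alternative exon of XPA were already known to differ, so the values below are a description and were not tested. RKO is an established human colorectal cancer cell line, grown here in DMEM with fetal bovine serum. One culture received the control siRNA (si-NC), the other the siRNA directed at SRSF2 (si-SRSF2), and each gave 1 library. No untransfected library and no 2nd SRSF2 siRNA was analysed here, so the knockdown, the sequence of this siRNA and the state of each culture cannot be told apart.

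The si-NC library held 19931360 counts and the si-SRSF2 library 14512802. SRSF2 itself had 1964 counts in the control and 713 after knockdown, which left 49.9% of the control level. Among epithelial markers, KRT8, KRT18, CDX2 and EPCAM had 147 to 632 counts in the libraries, whereas CDH1 had at most 10 and KRT19 and VIL1 had 1 each. KRT8, with 547 and 618 counts, was 1.55-fold higher in si-SRSF2 (95% Clopper-Pearson interval of the ratio 1.38 to 1.74), while the ratio intervals of KRT18, CDX2 and EPCAM held 1; the part of this in the results below was not tested. The markers of other cell types PTPRC, COL1A1 and PECAM1 had 0 to 13 counts.

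NER removes bulky lesions, such as the photoproducts made by ultraviolet light, by cutting out a short stretch of the damaged strand and filling the gap. Lesions are found across the genome by XPC with RAD23B and by the DDB1-DDB2 complex, or at stalled RNA polymerase by the transcription-coupled branch. TFIIH then opens the helix with its helicases ERCC3 (XPB) and ERCC2 (XPD). XPA checks the lesion and holds RPA and the nucleases in place, and ERCC1-ERCC4 (XPF) and ERCC5 (XPG) make the cuts. Inherited loss of most of these genes causes xeroderma pigmentosum.

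XPA (ENSG00000136936.11) occupies chr9:97674909-97697340 of GRCh38, minus strand. Its canonical transcript in GENCODE release 44, XPA-201, has 6 exons, 1400 bases and 273 codons. A further transcript, XPA-202, is annotated as a target of nonsense-mediated decay (NMD), the pathway that degrades mRNAs with a premature stop codon. It has 7 exons, because an additional exon lies between the 5th and the last exon of XPA-201. This exon is found at chr9:97682200-97682430 and is 231 bases long, a multiple of 3. The first 224 codons are common to both transcripts. In XPA-202 translation then ends within the additional exon, after 264 codons, and the stop codon lies 109 bases before the last exon junction. The exon is shown here because it is the place at which the transcript with and the transcript without it part. The lines give the coding bases of the additional exon, chr9:97682309-97682430, and of the last exon of XPA-201, chr9:97675439-97675587, 5′ to 3′ on the transcribed (minus) strand, with the stop codon in capitals.
XPA-202 exon 6: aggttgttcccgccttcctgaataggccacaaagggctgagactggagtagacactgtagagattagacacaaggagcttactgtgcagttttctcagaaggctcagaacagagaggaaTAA
XPA-201 exon 6: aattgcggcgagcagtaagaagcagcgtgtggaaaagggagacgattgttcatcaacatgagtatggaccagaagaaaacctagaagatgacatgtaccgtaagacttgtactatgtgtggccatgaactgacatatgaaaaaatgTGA

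The splice sites of the additional exon were read from the same genome. In the lines below, capitals mark exon bases and lower case marks intron bases.
3′ splice site: ttcttgttgatttactttagAGG
5′ splice site: AAGgtaaga
SRSF2 is known to bind the RNA motifs CCNG and GGNG, where N is any base. On the transcribed strand the additional exon held 5 of them, or 2.16 per 100 bases. Exons 2 to 5 of XPA held between 0.847 and 2.70 per 100 bases. Of 975 internal exons of 181 to 281 bases in coding genes of the same chromosome, 99.1% held at least 1, their median was 4.30 per 100 bases, and 19.6% had a density no higher than that of the additional exon. These are letter matches and not binding sites. The reads over the exon junctions were not analysed here, so the table of counts gives the sum of all XPA transcripts and not the share of either. An annotated NMD transcript was common: 9 of the 10 repair genes had at least 1, as had 49.6% of 10435 expressed coding genes.

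**Figure D1:**
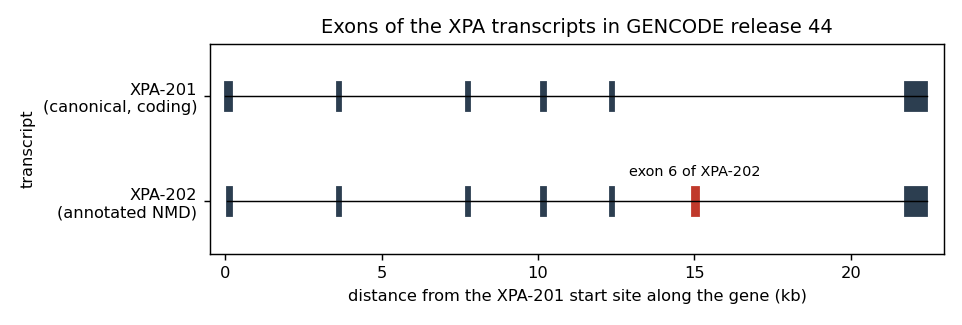
Exons of the canonical XPA transcript XPA-201 (6 exons) and of XPA-202 (7 exons, annotated as an NMD target), drawn to scale against the distance from the XPA-201 start site in kb. Boxes are exons and the line is the gene; the box of 231 bases drawn in red is present in XPA-202 alone of the pair.

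XPA had 195 counts in si-NC, the larger library, against 253 in si-SRSF2. Levels are given as CPM, counts per 1000000 of the library size after TMM scaling in edgeR. They were 9.78 CPM for si-NC (95% Poisson interval 8.46 to 11.3) against 17.4 CPM for si-SRSF2 (15.3 to 19.7). XPA was therefore 1.78-fold higher after SRSF2 knockdown (95% Clopper-Pearson interval 1.47 to 2.16), a log2 ratio of 0.80 with 0.5 CPM added to each value. All intervals cover counting error alone, because a group of 1 library has no replicate spread. In bulk RNA, a change in the make-up of the cells and a change in the RNA of each cell cannot be told apart. XPA ranked 232nd from the top by log2 ratio among the 12620 genes that passed a filter of 1 CPM or more on the mean of both libraries. In GENCODE no other counted gene shared exon bases with XPA and none of its 31-base words occurred in another gene or on an alternate scaffold, but in RefSeq the extent of XPA runs for 19351 bases into that of its neighbour NCBP1. Which annotation was used for counting is not clear: the methods name Ensembl, while the count table holds 16146 symbols that begin with LOC, an NCBI style. Whether this overlap touches the XPA counts was therefore not tested. NCBP1, a subunit of the nuclear cap-binding complex, had 2635 and 1927 counts and a log2 ratio of 0.01 (-0.08 to 0.09). FOXE1, the coding gene on the other side, was listed at 0 in both libraries.

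XPC and DDB2, which both recognise lesions in the genome as a whole, were also higher in si-SRSF2. XPC, the damage sensor that opens global repair, had 794 counts in si-NC against 1058 in si-SRSF2. Its level was 39.8 CPM (37.1 to 42.7) and 72.9 CPM (68.6 to 77.4), a 1.83-fold difference (1.67 to 2.01). DDB2, the subunit of the DDB complex that reads ultraviolet lesions, had 1035 counts and 1193. This corresponded to 51.9 CPM (48.8 to 55.2) and 82.2 CPM (77.6 to 87.0), a 1.58-fold difference (1.46 to 1.72). The interval of the ratio lay above 1 for 5 of the 10 genes, these 3 with ERCC1 and ERCC2, and for 21.0% of all genes past the filter.

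Their partners stood near the control level. RAD23B, which stabilises XPC, had 10097 and 7271 counts, or 507 and 501 CPM, a ratio of 0.989 (0.959 to 1.02). DDB1, the adaptor that ties DDB2 to the CUL4 ubiquitin ligases, had 6310 and 4437 counts, or 317 and 306 CPM, a ratio of 0.966 (0.929 to 1.004). The balance within each pair can be given without any scaling of the libraries. Per 100 counts of RAD23B there were 7.86 of XPC in si-NC against 14.6 in si-SRSF2, so this ratio was 1.85 times as high (95% exact conditional interval 1.68 to 2.04). Per 100 counts of DDB1 there were 16.4 of DDB2 in si-NC against 26.9 in si-SRSF2, 1.64 times as high (1.49 to 1.80). In both pairs the balance lay further toward the lesion-reading subunit in si-SRSF2.

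The helicases of TFIIH differed little. ERCC2 had 1863 and 1532 counts, or 93.5 CPM (89.3 to 97.8) and 106 CPM (100.3 to 111), and was 1.13-fold higher (1.05 to 1.21). ERCC3 had 1839 and 1319 counts, or 92.3 and 90.9 CPM, with a ratio of 0.985 (0.917 to 1.06). The counts of ERCC2 per 100 counts of ERCC3 were 101 in si-NC against 116 in si-SRSF2, 1.15 times as many (1.04 to 1.27). Exons of KLC3 on the opposite strand cover 13.0% of the exon bases of ERCC2. KLC3, a kinesin light chain gene, had 145 and 112 counts, few beside those of ERCC2.

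ERCC1, the non-catalytic subunit of the nuclease that cuts on the 5′ side of the lesion, had 5920 and 5064 counts. Its level was 297 CPM (290 to 305) and 349 CPM (339 to 359), 1.17-fold higher (1.13 to 1.22). Its catalytic partner ERCC4 had 390 and 248 counts, or 19.6 CPM (17.7 to 21.6) and 17.1 CPM (15.03 to 19.4), a ratio of 0.873 (0.742 to 1.03). Per 100 counts of ERCC1 there were 6.59 of ERCC4 in si-NC against 4.90 in si-SRSF2, 0.743 times as many (0.629 to 0.878).

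ERCC5, the nuclease of the 3′ side, had 61 counts in si-NC against 27 in si-SRSF2. Its level was 3.06 CPM (2.34 to 3.93) and 1.86 CPM (1.23 to 2.71), a ratio of 0.608 (0.371 to 0.971). This gene is uncertain. Its log2 ratio of -0.59 passed 1.5-fold narrowly, and did not with upper-quartile scaling or a pseudocount of 2 CPM. On chromosome 13 a read-through gene, BIVM-ERCC5, covers 91.7% of the exon bases of the canonical ERCC5 transcript on the same strand, and 91.6% of its 31-base words also occur there. BIVM-ERCC5 was listed at 0 in both libraries, and BIVM, the gene before it, had 607 and 445 counts. Overlap was also set beside level over all coding genes. Of 158 with 90% or more of their exon bases in exons of another counted gene on the same strand, 84.8% averaged under 1 CPM. Of 17833 genes with under 10%, 42.4% did. ERCC5 belongs to the first class but had a mean of 2.46 CPM, and why genes of that class were low was not tested. How the authors' counting treated reads that fall in several genes is not given in the sources used here, and its part in the ERCC5 counts was not tested.

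**Figure D2:**
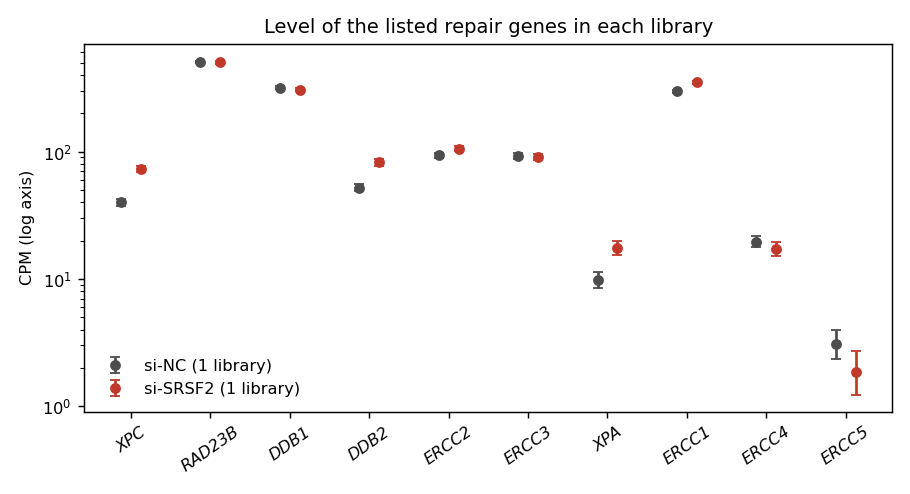
Level of the 10 repair genes in CPM (log axis) in the si-NC library (grey) and the si-SRSF2 library (red); points are single libraries and bars are 95% Poisson intervals, which cover counting error alone. XPC, XPA and DDB2 are 1.83, 1.78 and 1.58 times as high in si-SRSF2, ERCC1 and ERCC2 are 1.17 and 1.13 times as high, RAD23B, DDB1 and ERCC3 nearly coincide, and ERCC5 is lowest at 3.06 and 1.86 CPM.

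Levels of different genes were compared per kilobase of the canonical transcript. In si-NC, RAD23B stood highest at 123 CPM per kb, followed by ERCC1 at 87.9 and DDB1 at 74.6. ERCC3 (33.9), DDB2 (28.6) and ERCC2 (22.8) made up the middle of the order. XPC (10.9), XPA (6.99), ERCC4 (2.89) and ERCC5 (0.787) were lowest. No neighbours in this order had overlapping counting intervals. In si-SRSF2 the order was the same except that DDB2, at 45.3 CPM per kb, stood above ERCC3 at 33.4. XPA reached 12.5 CPM per kb there and remained below XPC at 19.97. Over the means of both libraries, the level of XPA per kb was above that of 43.7% of 10435 coding genes past the filter, that of RAD23B above 96.2% and that of ERCC4 above 15.3%.

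By the rule of at least 1.5-fold, 3 of the 10 genes (XPA, XPC and DDB2) were higher in si-SRSF2 and 1 (ERCC5) was lower. Of all 12620 genes, 4.18% were higher and 3.52% lower by the same rule. Nothing is read from this difference, because the list was selected on this contrast. With a smaller limit, 25% between the higher and the lower library, the members past it were the same 3 and 1, against 11.8% and 13.3% of all genes. At 2-fold no member was past the limit in either direction, against 0.848% and 0.499%. The Clopper-Pearson interval lay below 1 for ERCC5 alone of the 10, against 26.7% of all genes. The median log2 ratio was 0.08 over the 10 members, 0.17 over the 9 without ERCC5, and -0.02 over all genes. Within 0.25 of 0 on the log2 scale lay 6 of the 10 members and 64.8% of all genes.

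**Figure D3:**
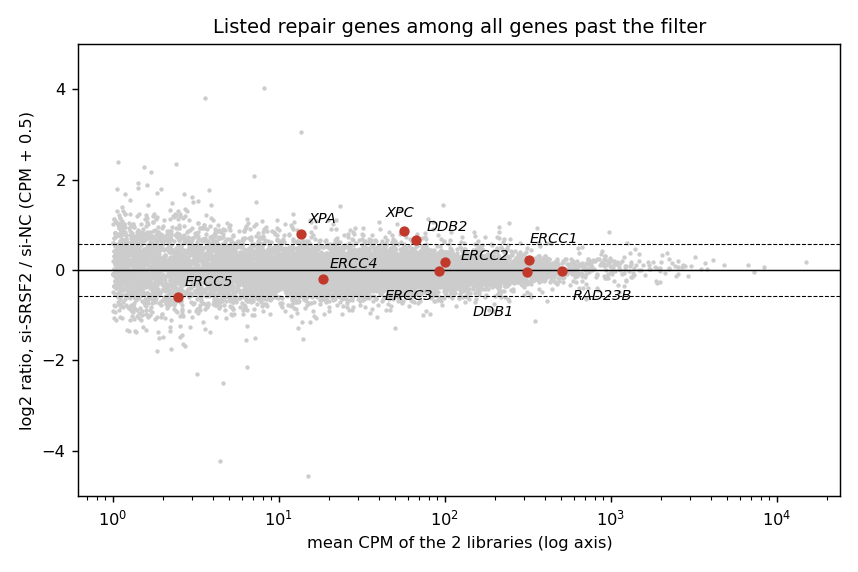
Log2 ratio (si-SRSF2 over si-NC) against the mean CPM (log axis) of the 12620 genes past the filter (grey), with the 10 repair genes in red and dashed lines at 1.5-fold. XPC (0.86), XPA (0.80) and DDB2 (0.66) lie above the upper line and ERCC5 (-0.59) just below the lower line.

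The other genes of the pathway were taken from a list of 42, of which 41 passed the filter. Their median log2 ratio was -0.03, and 18 were above 0 and 23 below, as were 5830 and 6790 of all genes. Within 0.25 of 0 lay 34 (82.9%), against 64.8% of all genes. By the 1.5-fold rule 2 were higher, with CDK7 among them, and none was lower, against 4.18% and 3.52% of all genes. CUL4A, a ubiquitin ligase scaffold joined to DDB1, had 2215 and 2218 counts and a log2 ratio of 0.46 (0.37 to 0.55), while its close relative CUL4B had 1669 and 1082 counts and a log2 ratio of -0.17 (-0.28 to -0.06). RBX1, the RING subunit of these ligases, had 587 and 354 counts and a log2 ratio of -0.27 (-0.47 to -0.08).

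The 8 genes of the transcription-coupled branch had log2 ratios between -0.14 and 0.24. The interval of the ratio lay above 1 for 4 of them (ERCC6, UVSSA, HMGN1 and TCEA1) and below 1 for none, against 21.0% and 26.7% of all genes. ERCC6 (CSB), the ATPase that meets the stalled polymerase, had 461 and 399 counts and was 1.19-fold higher (1.04 to 1.36). ERCC8 (CSA), the substrate receptor of that branch, had 225 and 171 counts and a log2 ratio of 0.06 (-0.23 to 0.35). The subunits of RPA, which coats the undamaged strand beside XPA, had log2 ratios of -0.19 for RPA1, 0.03 for RPA2 and -0.05 for RPA3. XPA counts per 100 counts of RPA2 were 22.7 in si-NC against 39.6 in si-SRSF2, 1.74 times as high (1.40 to 2.17).

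Of 18 genes of gap filling and ligation, 14 had a log2 ratio below 0 and 4 above, as had 6790 and 5830 of all genes. Their median was -0.06, with a range from -0.31 to 0.07. The interval of the ratio lay below 1 for 6 of the 18 (RFC5, POLE, POLE3, POLK, LIG1 and LIG3), against 26.7% of all genes, and above 1 for none. LIG1, the replicative DNA ligase, had 1031 and 605 counts and was lowest, with a log2 ratio of -0.31 (-0.46 to -0.17). LIG3, which seals nicks together with XRCC1, followed with 1442 and 893 counts and -0.23. PCNA, the sliding clamp, had 3575 and 2737 counts and the highest log2 ratio of the group, 0.07 (-0.00 to 0.14).

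**Figure D4:**
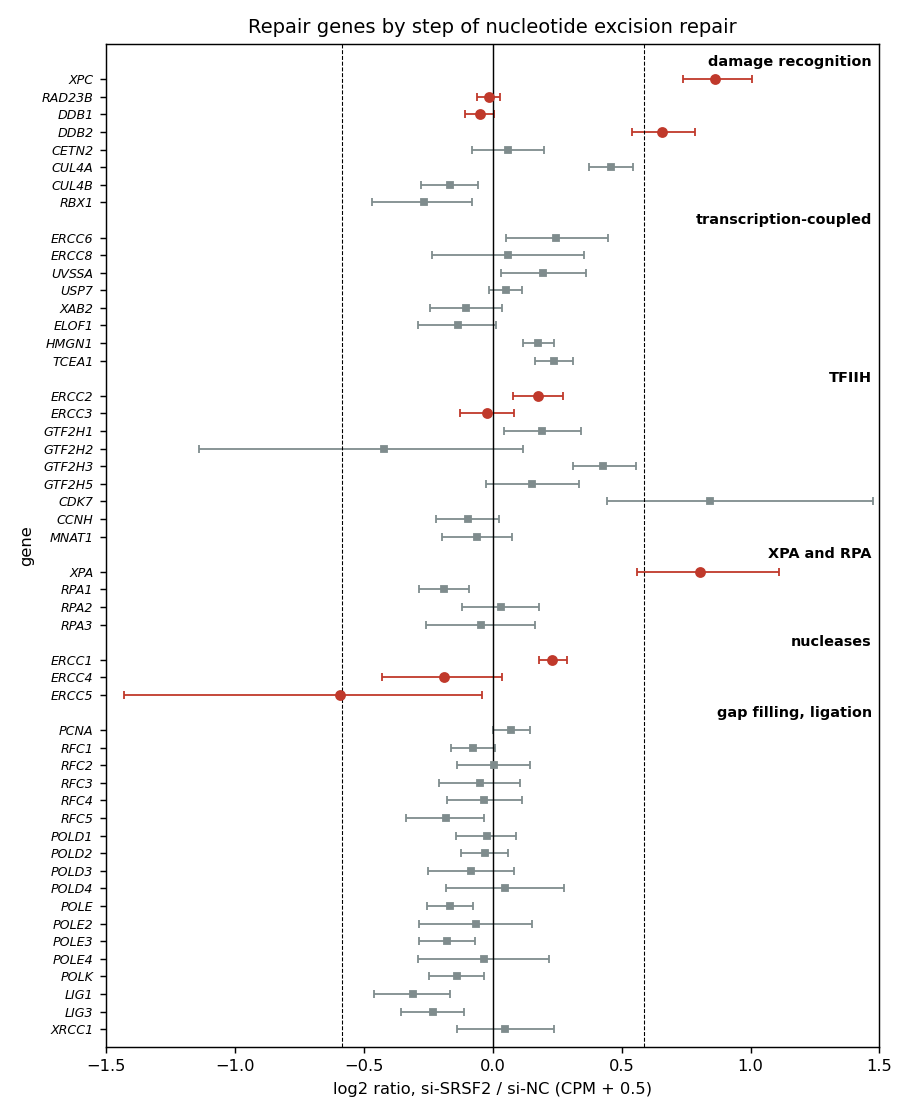
Log2 ratio (si-SRSF2 over si-NC) for the 10 repair genes (red circles) and the other NER genes past the filter (grey squares), ordered by step of the pathway; bars are 95% Clopper-Pearson intervals and dashed lines mark 1.5-fold. 1 other gene is not drawn. Among damage recognition genes XPC and DDB2 lie beyond the upper line, and the 18 genes of gap filling and ligation lie between -0.31 and 0.07.

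For TFIIH, 3 of the 8 further subunits rested on few counts. GTF2H4 was listed at 0 in both libraries. By the rule that 0 allows up to 3 counts, the counted reads reach at most 0.151 CPM (si-NC) or 0.207 CPM (si-SRSF2). Any reads left uncounted because of shared sequence are not covered by this limit. GTF2H2 had 66 and 34 counts and CDK7, the kinase subunit, 56 and 79, a log2 ratio of 0.84 (0.44 to 1.47). The other 5 had 561 to 1342 counts in si-NC. The 3 low genes were those with most of their sequence elsewhere in the genome: 78.9% of the 31-base words of GTF2H4, 78.3% of those of CDK7 and 74.4% of those of GTF2H2 occurred on alternate-locus scaffolds, and 94.5% of those of GTF2H2 in the copies GTF2H2B and GTF2H2C. With ERCC5 these were the 4 NER genes with 50% or more of such words, and the lowest 4 by counts of the 52. The part of shared sequence in these counts was not tested, and the levels and ratios of these genes are uncertain. ERCC2, ERCC3 and the 5 other TFIIH subunits had a median log2 ratio of 0.15, from -0.10 to 0.43.

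**Figure D5:**
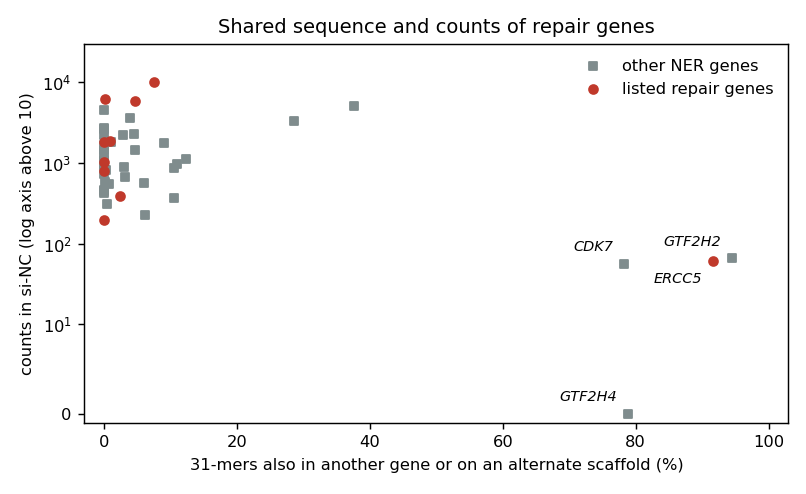
Counts in si-NC (log axis above 10) of the 10 repair genes (red circles) and the 42 other NER genes (grey squares) against the percent of their 31-base words that also occur in another gene or on an alternate scaffold. ERCC5, GTF2H2, CDK7 and GTF2H4 lie at the right with 61, 66, 56 and 0 counts, while all others have at least 195.

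XPA is bound or modified by several proteins, and a list of 5 of them was examined. All 5 had a log2 ratio at or below 0, as had 6790 of the 12620 genes past the filter. HERC2, the ubiquitin ligase of XPA, had 328 and 157 counts and a log2 ratio of -0.58 (-0.89 to -0.33), but 74.3% of its 31-base words occurred on alternate scaffolds and 29.3% in other genes, among them HERC2 pseudogenes. ATR, the checkpoint kinase that phosphorylates XPA, had 1644 and 1038 counts and a log2 ratio of -0.20 (-0.32 to -0.09). The deacetylase SIRT1 (-0.13), the GTPase GPN1 (-0.08) and the poly(ADP-ribose) polymerase PARP1 (-0.00) lay closer to 0, and their intervals held 0. With upper-quartile scaling the log2 ratio of PARP1 was 0.02, so a common direction of the 5 is not shown.

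The regions upstream of the genes that stood higher were compared by sequence. RefSeq gave a window from 250 bases before to 50 after the start for all 10 genes. The motif GGGCGG (a GC box, both strands) was found in the windows of 6 of the 10 genes, XPA and XPC among them, and in 44.6% of 27305 windows of all genes. CCAAT (both strands) was found in 3, DDB2, ERCC2 and RAD23B, against 35.7% of all windows. TATAAA (both strands) was found in none of the 10, against 12.0%. The 150 bases before the start of XPA, XPC and DDB2 are given here because these members stood higher together. They lie at chr9:97697341-97697490 (minus strand), chr3:14178602-14178751 (minus) and chr11:47214304-47214453 (plus) of GRCh38.p14, and capitals mark GGGCGG and CCAAT on either strand.
XPA: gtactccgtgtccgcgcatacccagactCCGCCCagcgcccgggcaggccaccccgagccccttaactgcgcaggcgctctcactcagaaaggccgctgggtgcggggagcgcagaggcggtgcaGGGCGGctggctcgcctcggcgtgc
XPC: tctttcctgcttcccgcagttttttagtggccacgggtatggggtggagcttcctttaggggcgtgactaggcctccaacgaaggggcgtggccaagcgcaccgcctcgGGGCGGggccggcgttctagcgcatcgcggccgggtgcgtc
DDB2: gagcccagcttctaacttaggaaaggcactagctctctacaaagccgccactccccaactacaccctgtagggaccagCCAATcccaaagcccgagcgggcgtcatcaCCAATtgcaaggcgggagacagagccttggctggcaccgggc
The printed stretches held 73.3% G and C for XPA, 66.7% for XPC and 60.0% for DDB2, and none of the 3 motifs named above was found in the windows of all 3 genes. The seed of the siRNA against SRSF2 is bases 2 to 8 of its guide strand. The matching 7 letters, GTCGCGA, occurred in the canonical transcript of SRSF2 and in that of none of the 10 repair genes. The share of all transcripts that hold these letters was not counted, so nothing is read from their absence. Effects of the siRNA on genes other than its target were not tested.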

How the data were processed

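RNA-seq libraries of RKO cells (1 si-NC, 1 si-SRSF2) were analysed, grouped by the labels. Per the labels and the methods, the authors made stranded poly(A) libraries, read them as 150 bp pairs, aligned them with HISAT2 2.0.4 to GRCh38 and counted reads per gene with HTSeq; the strand and overlap modes are not given in the sources used here. The deposited table holds whole-number counts for each gene symbol, not normalized. The members and gene lists were chosen with earlier results of these data known.

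Library sizes were scaled by TMM (edgeR 4.0.16, R 4.3.3). Log2 ratios were taken after adding 0.5 CPM to each level, over the 12620 of 54261 genes whose mean reached 1 CPM. With 1 library per group no test was run. Ratios have 95% Clopper-Pearson intervals and levels Poisson intervals (SciPy 1.17.1). A count of 0 allows up to 3 counts. Paired reads without molecular identifiers are not independent molecules, so intervals and limits cover counting error only. On simulated data with 191 changed genes among 12608, 95.5% of intervals held the true ratio. The simulated counts were Poisson draws, the error that the intervals assume. This checks the calculation only, not the spread between cultures or duplicate reads.

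Transcripts and exons came from GENCODE release 44 on GRCh38, promoters from RefSeq (GRCh38.p14). Shared sequence was the percent of 31-base words of the canonical transcript found in another counted gene's transcripts or on 261 alternate scaffolds. Genes were named by this rule: SRSF2, the 10 repair genes, the highest and lowest 2 of the other NER genes, genes with shared sequence, neighbours of members, and the 3 genes most like XPA. Some genes under this rule are not reported here. Other genes of the lists, among them CUL4A, CUL4B, ERCC6, UVSSA, HMGN1, TCEA1, POLE, LIG3, PCNA and ATR, were named after their values were seen. As alternatives, libraries were scaled by total counts, upper quartiles or DESeq2 1.42.0, other pseudocounts, filters and folds were used, and abundant and mitochondrial genes were left out. The junction reads in the study's supplement and protein sequences were not used here.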

Additional observations from a re-analysis of the deposited data

How the results depend on the processing

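No paired analysis was possible because neither group had more than 1 library, and for the same reason no replicate could be left out. Under the alternative scalings, pseudocounts and filters, the log2 ratio of XPA ran from 0.72 to 0.83 and that of SRSF2 from -1.003 to -0.97. The medians of the listed repair genes (0.08 to 0.17) and of the other NER genes (-0.03 to -0.01) kept their sign. The value of 0.17 is over 9 genes, where ERCC5 was left out. All 477 values of 60 single genes under these alternatives stayed within the counting interval of the gene. A change of filter cannot alter the ratio of a single gene. The TMM, total-count and DESeq2 library sizes nearly coincided, so many of these values could hardly differ from the main ones.

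The counts depended on the fold. At 2-fold 0 of the 10 repair genes were higher and 0 lower, and 0 of the other NER genes were higher. Of all genes 0.848% were higher and 0.499% lower. By the interval, 5 of the 10 were higher, and 9 of the other NER genes were higher and 9 lower. At a limit of 25% between the libraries, 4 of the others were higher and 1 lower, against 11.8% and 13.3% of all genes. ERCC5, the 1 member at least 1.5-fold lower, was no longer so with upper-quartile factors (0 lower), with a pseudocount of 2 CPM (0), at a mean of at least 5 CPM (0, since it was removed) or, by construction, without genes of shared sequence (0); this last alternative was added after seeing the data. A mean of at least 5 CPM and leaving out genes of shared sequence each removed CDK7 and left 1 other NER gene higher. With 61 and 27 counts, ERCC5 was the member most limited by depth.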

Other observations

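XPA was set beside genes of like abundance. Of 1747 genes with a mean CPM within 1.5-fold of that of XPA, 19 (1.09%) had a log2 ratio at least as high. Nothing is read from this share, because XPA was selected on this same contrast. The 3 nearest to XPA over the 2 libraries were ATP5S (135 counts in si-NC against 177 in si-SRSF2, log2 ratio 0.80), the ribosomal protein pseudogene RPL17P50 (166 and 215, 0.79) and APOBEC3F, a cytidine deaminase (140 and 181, 0.79). With 2 libraries this likeness is a single ratio.

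The coding genes beside the members that stood higher did not all go the same way. Next to XPC, TMEM43 had 1363 and 860 counts (log2 ratio -0.21, 95% Clopper-Pearson interval -0.33 to -0.08), and LSM3, a core splicing protein gene, had 1033 and 903 (0.26, 0.13 to 0.39). Next to DDB2, PACSIN3 had 437 and 328 counts (0.04, -0.17 to 0.25) and ACP2 had 339 and 213 (-0.21, -0.47 to 0.04). None of these 4 neighbours nor NCBP1 was 1.5-fold higher, against 4.18% of all genes past the filter. Nothing is read from so few genes, and a part of the region in these ratios was not tested.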
